A study of Mus musculus with 12 samples.

Results

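The transcripts of 10 Toll-like receptor genes, Tlr1, Tlr2, Tlr3, Tlr4, Tlr5, Tlr6, Tlr7, Tlr8, Tlr9, and Tlr13, were examined in eosinophils of the mouse small intestine (SI). They were taken by gene symbol from a table of 36047 genes, and each symbol marked a single row. The study asked how eosinophils adapt to the SI, and sorted them from the lamina propria, the tissue layer under the epithelium, as live CD45+ CD11b+ SiglecF+ MHCII− Ly6G− cells. RNA was sequenced from 3 subsets, namely eosinophils that carried the gut-homing integrin α4β7 (α4β7+), eosinophils with neither α4β7 nor the lectin CD22 (α4β7− CD22−), and eosinophils with CD22 (CD22+), with 4 libraries per subset. Each library held RNA from 2 pooled mice, and all mice were wild type C57BL/6J, labelled as female, on standard chow, with no treatment and no age in the labels. Whether libraries with the same replicate number came from the same mice is not stated, and p-values measure the spread between these libraries.

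Toll-like receptors are membrane proteins of innate immune cells that bind microbial molecules through leucine-rich repeats and signal through a cytoplasmic TIR domain. TLR1, TLR2, TLR4, TLR5, and TLR6 sit mainly at the cell surface and recognize lipopeptides, lipopolysaccharide, and flagellin. TLR3, TLR7, TLR8, TLR9, and TLR13 sit in endosomes and recognize nucleic acids, and mouse TLR13 binds a stretch of bacterial ribosomal RNA. Most of these receptors signal through MyD88 and TLR3 through TRIF, which leads to the activation of NF-κB and interferon regulatory factors.

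Tlr13 was the most abundant of the 10 transcripts in every library, and it was the only member called between subsets. It is encoded on chromosome X of GRCm38 from 106143204 to 106160493 on the plus strand. RefSeq places its start 71 bases inside the GENCODE gene, and the window from 250 bases before to 50 bases after that start, chrX:106143025-106143324 (plus strand, GRCm38.p6), is shown because it belongs to the member that changed. The last 50 bases of this window were not found whole in a GENCODE transcript of Tlr13, and the same held for the windows of Tlr1 and Tlr6. Capitals mark a match to the ETS motif GAGGAAG.

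Tlr13 promoter: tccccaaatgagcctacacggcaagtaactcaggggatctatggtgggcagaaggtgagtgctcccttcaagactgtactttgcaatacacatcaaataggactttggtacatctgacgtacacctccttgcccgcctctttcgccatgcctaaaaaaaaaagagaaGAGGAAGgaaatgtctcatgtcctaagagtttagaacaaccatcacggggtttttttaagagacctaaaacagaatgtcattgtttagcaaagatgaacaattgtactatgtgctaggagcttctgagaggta

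Windows of this kind were at hand for 8 of the 10 members, 10 windows in all, and each was searched on both strands for 6 motifs. The Tlr13 window held the ETS match, which began 83 bases before the start, and 1 match to the C/EBP motif TTNNGNAA. It held none to the κB motif searched, to the GATA motif AGATAA, to the AP-1 motif TGANTCA, or to the IRF motif GAAANNGAA. Matches to ETS also lay in a window of Tlr1 and of Tlr9, and 13.6% of all 32851 windows held one, against 40.7% for C/EBP. Matches to the κB motif, held by 4.51% of all windows, lay in the windows of Tlr2 and Tlr3, and those to the IRF motif, held by 8.56%, in windows of Tlr6 and Tlr8. Matches to GATA, held by 11.2%, lay in the windows of Tlr3 and Tlr9, and a match to AP-1, held by 7.81%, in that of Tlr9. These matches describe letters in the windows, and factor binding was not measured.

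A second set of sequences is shown because 2 of the members cannot be fully separated by sequencing. Tlr1 and Tlr6, which encode receptors that each pair with TLR2, lie 18467 bases apart on the minus strand of chromosome 5, Tlr1 from 64924679 to 64933563 and Tlr6 from 64952031 to 64960097. Their longest coding transcripts shared 9 stretches of at least 31 bases, the default word length of Kallisto, with 873 bases in all. The longest was 229 bases of coding sequence at chr5:64925537-64925765 in Tlr1 and chr5:64953828-64954056 in Tlr6. It is given with 20 bases on either side, with the identical stretch in capitals.

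Tlr1: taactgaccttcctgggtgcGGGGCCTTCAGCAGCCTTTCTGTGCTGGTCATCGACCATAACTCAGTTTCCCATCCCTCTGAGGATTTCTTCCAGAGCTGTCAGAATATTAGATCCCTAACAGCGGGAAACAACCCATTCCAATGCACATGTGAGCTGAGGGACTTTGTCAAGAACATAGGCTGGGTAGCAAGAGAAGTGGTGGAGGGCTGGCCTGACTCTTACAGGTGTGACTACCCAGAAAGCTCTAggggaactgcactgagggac
Tlr6: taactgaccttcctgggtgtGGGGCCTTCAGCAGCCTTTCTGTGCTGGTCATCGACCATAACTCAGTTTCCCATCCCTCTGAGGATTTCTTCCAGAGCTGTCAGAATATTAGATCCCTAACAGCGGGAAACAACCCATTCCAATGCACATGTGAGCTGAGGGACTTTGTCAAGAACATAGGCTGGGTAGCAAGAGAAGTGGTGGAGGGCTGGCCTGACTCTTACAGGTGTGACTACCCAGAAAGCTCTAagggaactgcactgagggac

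Of the 31-base words of Tlr1, 20.1% occurred in Tlr6, and 17% of those of Tlr6 occurred in Tlr1. A read that falls within such a stretch fits both genes, and Kallisto divides it between them by estimation. For the other 8 members, no 31-base word of the longest coding transcript occurred, in the sense direction, in the transcripts of another gene of the GENCODE annotation. Words of the opposite strand were not searched, and exons of Tlr3 overlap those of Gm45542 on that strand.

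Levels are given as normalized counts, which the authors scaled between libraries with DESeq2. Per kilobase of exon and averaged over the 12 libraries, Tlr13 stood at 758 normalized counts, Tlr6 at 119, and Tlr1 at 73.3. Tlr2 followed at 10 and Tlr3 at 9.79, then Tlr4 at 6.05, Tlr9 at 4.65, Tlr7 at 4.59, Tlr8 at 2.13, and Tlr5 at 0.659. Tlr13, Tlr6, and Tlr1 together made up 96.2% of the summed level of the 10 members, and the share of Tlr13 alone was 80.8% in the α4β7+, 75.2% in the α4β7− CD22−, and 72.6% in the CD22+ subset. In each subset, the libraries of Tlr13 lay above those of Tlr6, and those of Tlr1 above those of the member ranked next. Tlr6 and Tlr1 overlapped in the α4β7+ and CD22+ subsets, and the members ranked lower overlapped with their neighbours throughout, except Tlr8 and Tlr5 in CD22+ eosinophils. With the longest coding transcript as the length, the first 3 places were the same, Tlr3 stood above Tlr2 and Tlr7 above Tlr9, and the value of Tlr4 was 8.25 in place of 6.05 per kilobase.

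**Figure D1:**
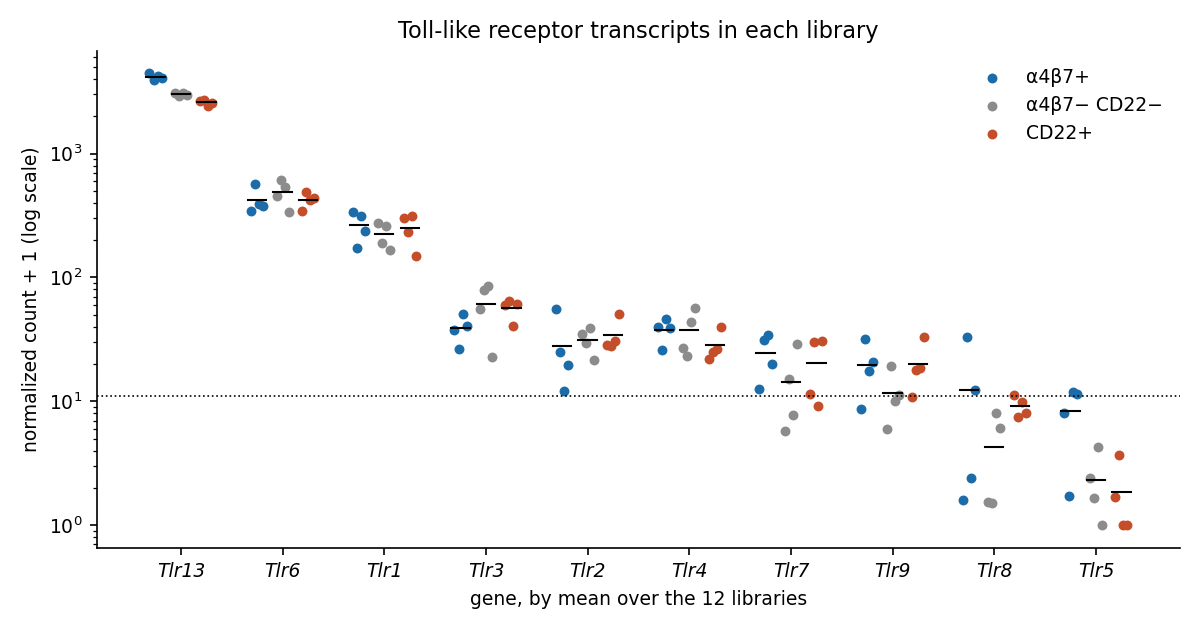
Normalized count plus 1 on a log axis for the 10 Toll-like receptor genes, with 1 point per library, a black bar at the mean of each subset (n = 4), and a dotted line at the average count of 10 that a gene had to exceed to be tested. The 3 subsets separate only for Tlr13, and Tlr8 and Tlr5 lie under the line on average.

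Tlr13 fell from α4β7+ to CD22+ eosinophils. Its normalized counts were 4440, 3944, 4199, and 4102 in the 4 α4β7+ libraries, 3109, 2939, 3073, and 2980 in the α4β7− CD22− libraries, and 2670, 2707, 2428, and 2540 in the CD22+ libraries. The 3 groups of libraries did not overlap, with every α4β7+ library highest and every CD22+ library lowest. This separation is not particular to Tlr13, since Alox15, Ccr3, Dusp1, and Prg2, among others, separated in the same order. The share of all genes that separate was not counted. The means were 4171 ± 208, 3025 ± 78.8, and 2586 ± 128 (SD, n = 4), so that the mean of CD22+ was 38.0% and that of α4β7− CD22− 27.5% under that of α4β7+ eosinophils.

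Differences were tested with limma on log2(normalized count + 1) over the 15249 genes whose average count exceeded 10, and calls required a minimum 1.5-fold difference (0.585 on the log2 scale) together with an adjusted p (Benjamini-Hochberg) no higher than 0.05. Between CD22+ and α4β7+ eosinophils, the log2 fold change of Tlr13 was −0.69 (SE 0.063, adjusted p = 1.55e-06). It was the 1 member called of 8 tested, where 12% of all genes tested were called and 6.39% of all genes tested were called lower in CD22+. The log2 fold change between α4β7− CD22− and α4β7+ was −0.46 (adjusted p = 0.000152), which passed on the adjusted p but not on the fold, so none of the 8 members was called there, against 8.05% of all genes. Between CD22+ and α4β7− CD22− it was −0.23 (unadjusted p = 0.00275, adjusted p = 0.128), and no member was called, against 0.603% of all genes. In each of the 3 comparisons, Tlr13 was the only 1 of the 8 members tested with an unadjusted p under 0.05.

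The call of Tlr13 between CD22+ and α4β7+ was kept with libraries rescaled by the 75th percentile (−0.66) and with quantile normalization (−0.61). With libraries rescaled to an equal total, which moved the median of all genes by 0.17 between CD22+ and α4β7+, the log2 fold change was −0.53 (adjusted p = 1.52e-05), under the minimum fold, and −0.70 relative to that median. With each library left out in turn, it lay between −0.72 and −0.66. Several eosinophil markers moved with Tlr13. The 7 marker genes summed to between 97568 and 110345 normalized counts in the α4β7+ libraries, 73478 and 80746 in α4β7− CD22−, and 58543 and 63967 in CD22+, with 5 called lower in CD22+ than in α4β7+, among them Ccr3 (−1.22), and Siglecf not called (−0.04). Their part in the result was not tested, and in bulk RNA fewer cells of a type and less RNA per cell cannot be told apart. The levels of Tlr13 lay nearest those of Zfp36, Mctp1, and Chst13, with Pearson correlations of log2 values over the 12 libraries of 0.992, 0.992, and 0.990, a description of libraries that share subsets and scaling.

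**Figure D2:**
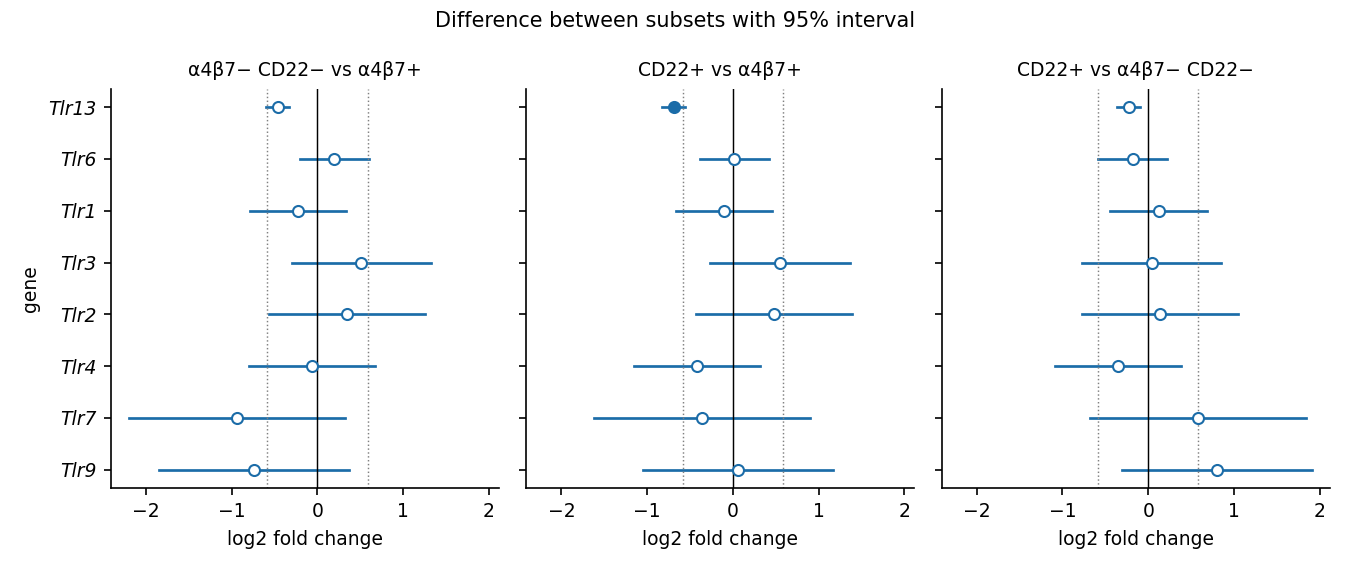
Log2 fold change (point) with its 95% interval from limma (line) for the 8 members tested, in the 3 comparisons of subsets (n = 4 libraries each). Filled points mark a call, and dotted lines the minimum fold change of 1.5. Tlr13 has the narrowest intervals and the only call, at −0.69 in CD22+ against α4β7+ eosinophils.

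The other endosomal receptors were detected at far lower counts. Tlr3, which binds double-stranded RNA, had 36.6, 25.5, 49.4, and 39.9 normalized counts in the α4β7+ subset, 54.6, 78.2, 84.0, and 21.6 in α4β7− CD22−, and 58.7, 64.0, 39.3, and 59.6 in CD22+ eosinophils. The groups overlapped, and the log2 fold changes against α4β7+ were 0.51 in α4β7− CD22− (95% interval −0.30 to 1.32) and 0.55 in CD22+ (−0.26 to 1.36). Tlr3 lies on the minus strand of chromosome 8 from 45395665 to 45411080, where its exons overlap Gm45542 on the opposite strand, and whether strand was used in counting is not given in the sources used here. With single libraries left out, the former ran from 0.29 without α4β7− CD22− replicate 3 (adjusted p = 0.712) to 0.93 without α4β7− CD22− replicate 4 (adjusted p = 0.0575), the highest and the lowest library of that subset.

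Tlr7, a receptor for single-stranded RNA, had 11.5, 30.2, 33.0, and 18.9 normalized counts in the α4β7+ subset, 4.75, 14.1, 6.75, and 28.05 in α4β7− CD22−, and 10.4, 29.2, 8.17, and 29.8 in CD22+ eosinophils. The groups overlapped. The log2 fold changes against α4β7+ were −0.94 in α4β7− CD22− (95% interval −2.20 to 0.32, adjusted p = 0.338) and −0.36 in CD22+ (−1.62 to 0.90), and the former ran from −1.37 to −0.59 with single libraries left out. Tlr9, a receptor for unmethylated CpG DNA on chromosome 9 (106222598 to 106226883), had 7.64, 30.9, 16.6, and 19.7 in α4β7+, 4.94, 18.3, 9.03, and 10.3 in α4β7− CD22−, and 9.80, 17.01, 17.7, and 32.1 in CD22+ eosinophils. Its log2 fold changes were −0.74 in α4β7− CD22− (95% interval −1.85 to 0.37, adjusted p = 0.401), from −1.08 to −0.46 with single libraries left out, and 0.06 in CD22+ (−1.04 to 1.17). The groups of Tlr9 overlapped. Each α4β7− CD22− library had less Tlr9 than the α4β7+ library of the same number. This is a description and not a paired result, since whether same-numbered libraries share mice is not stated.

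Tlr8 (167242696 to 167264329) lies beside its relative Tlr7 (167304929 to 167330558) on the minus strand of chromosome X, and did not reach the average count of 10. It had 0.603, 32.1, 1.40, and 11.3 normalized counts in the α4β7+ subset, 0.547, 0.506, 7.05, and 5.15 in α4β7− CD22−, and 10.3, 6.46, 8.94, and 7.11 in CD22+ eosinophils. The highest value, in α4β7+ replicate 2, came from the library that also had the highest counts of Siglech (57.3), Ms4a1 (80.6), and Cd3e (263), markers of plasmacytoid dendritic, B, and T cells, and their part in the value was not tested.

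Of the surface receptors, Tlr6 and Tlr1 were the most abundant. Tlr6, which pairs with TLR2 for diacylated lipopeptides, had 344, 566, 393, and 379 normalized counts in the α4β7+ subset, 451, 609, 539, and 339 in α4β7− CD22−, and 344, 485, 417, and 439 in CD22+ eosinophils. Tlr1, which pairs with TLR2 for triacylated lipopeptides, had 338, 171, 315, and 234 in α4β7+, 276, 190, 261, and 167 in α4β7− CD22−, and 302, 230, 313, and 147 in CD22+ eosinophils. The subsets overlapped for both genes. The log2 fold changes between CD22+ and α4β7+ were 0.02 for Tlr6 (95% interval −0.38 to 0.42) and −0.10 for Tlr1 (−0.67 to 0.46), and the signs of both turned when single libraries were left out.

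Within subsets, Tlr1 and Tlr6 followed the replicate number. In each of the 3 subsets, the libraries numbered 1 and 3 had more Tlr1 than those numbered 2 and 4, and the library numbered 2 had the most Tlr6. Differences between replicate numbers made up 81.5% of the sum of squares of Tlr1 within subsets and 69.8% of that of Tlr6. Over all genes tested, these shares had a median of 35.0% and a 95th percentile of 74.6%. Of the remaining members tested, the share was 80.6% for Tlr9, 69.8% for Tlr4, 63.3% for Tlr7, 40.4% for Tlr13, 19.5% for Tlr2, and 16.4% for Tlr3. These shares are a description, since what the numbers stand for is not stated.

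Tlr1 made up 23.2% of the sum of Tlr1 and Tlr6 in the lowest library, α4β7+ replicate 2, and 49.5% in the highest, α4β7+ replicate 1. In α4β7− CD22− eosinophils, replicate 4 was the lowest library for both genes, and the SD of the sum exceeded that of Tlr1 (53.0) and of Tlr6 (116). The sum averaged 685 ± 52.9 in the α4β7+, 708 ± 139 in the α4β7− CD22−, and 669 ± 66.1 in the CD22+ subset (SD, n = 4). Tested as 1 gene, an alternative chosen after the data were seen, the pair had log2 fold changes of 0.03 in α4β7− CD22− and −0.04 in CD22+ against α4β7+ eosinophils (SE 0.137). The part of the shared sequence in these values was not tested, since the reads were not used here.

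**Figure D3:**
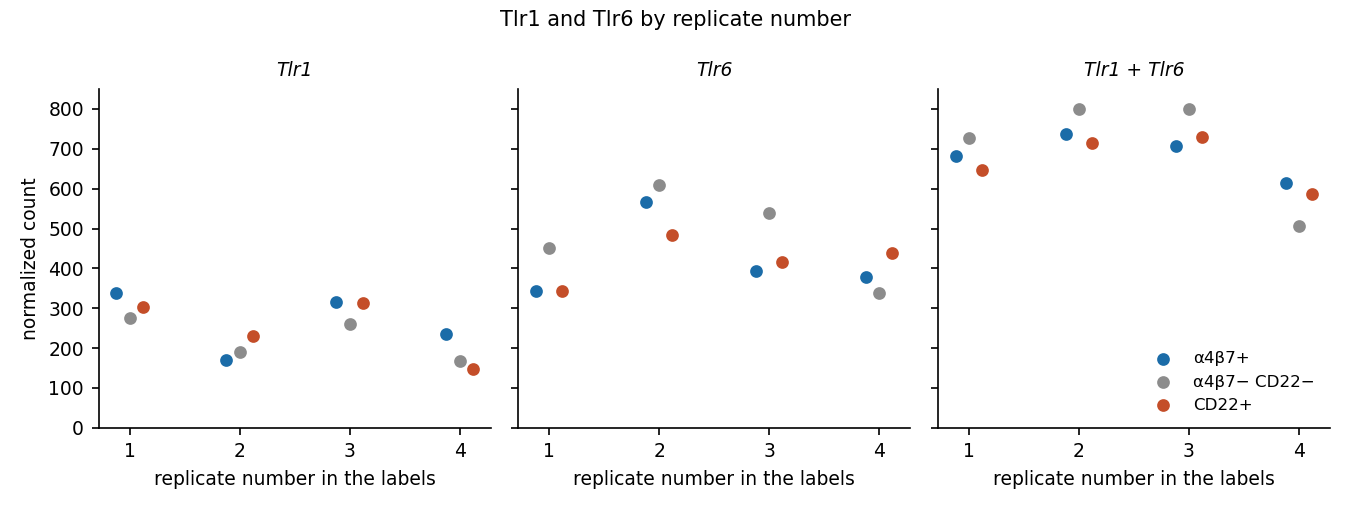
Normalized counts of Tlr1, of Tlr6, and of their sum against the replicate number of each library (4 libraries per subset, 1 point each). Tlr1 is lower at numbers 2 and 4 in all 3 subsets, Tlr6 is highest at number 2, and the sum stays between 506 and 800.

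TLR2, the partner of both receptors, was encoded by a transcript that ranked beside Tlr3. Tlr2, on chromosome 3 (83836272 to 83841767), had 54.6, 24.0, 11.1, and 18.5 normalized counts in the α4β7+ subset, 33.7, 28.4, 38.2, and 20.6 in α4β7− CD22−, and 27.4, 27.2, 29.7, and 49.7 in CD22+ eosinophils. The spread was widest in the α4β7+ subset, whose highest library exceeded all others, and the groups overlapped. Per kilobase and averaged over the 12 libraries, Tlr6 stood at 119 and Tlr2 at 10 normalized counts, with no library in which Tlr2 reached Tlr1 or Tlr6. The log2 fold change between CD22+ and α4β7+ was 0.48 (95% interval −0.43 to 1.39), with values of 0.89 without α4β7+ replicate 1 and 0.15 without α4β7+ replicate 3.

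Tlr4, the receptor for lipopolysaccharide on chromosome 4 (66827584 to 66930284), had 39.1, 24.95, 45.4, and 37.7 normalized counts in the α4β7+ subset, 26.2, 22.1, 43.0, and 55.5 in α4β7− CD22−, and 21.1, 24.0, 25.5, and 39.0 in CD22+ eosinophils, with overlap of all groups. Its log2 fold change between CD22+ and α4β7+ was −0.42 (95% interval −1.16 to 0.32). Tlr5, the flagellin receptor on chromosome 1 (182954788 to 182976044), had 7.003, 0.721, 10.96, and 10.5 in α4β7+, 1.41, 0.652, 3.26, and 0 in α4β7− CD22−, and 0.699, 2.68, 0, and 0 in CD22+ eosinophils. A floor of 3 reads corresponded to between 2.54 and 3.47 normalized counts, so 3 α4β7+ libraries stood above it. The highest α4β7− CD22− library, at 3.26, and the highest CD22+ library, at 2.68, stood slightly above their own floors of 3.01 and 2.54, and the other 6 libraries of these subsets lay below theirs. Tlr5 did not pass the filter. Without the filter, its log2 fold change between CD22+ and α4β7+ was −2.06, with an unadjusted p of 0.0106 and an adjusted p of 0.0893 in limma. Between α4β7− CD22− and α4β7+ it was −1.70 (unadjusted p = 0.0297, adjusted p = 0.221). The remaining mouse receptors of the family, Tlr11 and Tlr12, had between 1.99 and 6.74 and between 21.6 and 116 normalized counts, and Tlr12 was not called in any comparison.

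The identity of the libraries was checked against marker genes. Itgb7, which encodes the β7 chain, lay between 1838 and 3058 normalized counts in the α4β7+ libraries and between 98.7 and 304 in the rest, which follows the labels. Cd22 lay between 987 and 1364 in α4β7+, 3693 and 5819 in α4β7− CD22−, and 11553 and 14766 in CD22+ libraries, without overlap. The subset sorted as CD22− thus held more Cd22 transcript than α4β7+ eosinophils (log2 fold change 1.99, adjusted p = 3.25e-07). Siglecf lay between 6884 and 8594 in all libraries. Transcripts of the granule proteins Epx and Prg2 were at lower counts, between 58.7 and 173 and between 69.2 and 407. Transcripts of other cells were present in every library. The 10 macrophage and monocyte genes summed to between 2676 and 3241 normalized counts in the α4β7+ subset, 2212 and 3000 in α4β7− CD22−, and 1951 and 3743 in CD22+ libraries, with none of the 10 called in any comparison and none at 0 throughout. The 9 B and plasma cell genes summed to between 17221 and 57467, the 10 dendritic cell genes to between 3026 and 8018 (Batf3 called higher in both other subsets than in α4β7+), the 7 T and innate lymphoid cell genes to between 692 and 1752 (3 called lower in α4β7− CD22− than in α4β7+), and the 10 epithelial genes to between 1712 and 7987. The 6 stromal and endothelial genes summed to between 10514 and 13836, of which Pecam1 made up most, and the 6 Paneth cell genes to between 79.0 and 1658. The 7 neutrophil and 6 mast cell genes summed to at most 196 and 180, with Elane and Tpsb2 at 0 in all 12 libraries. Of the neutrophil genes, Ngp was called higher in both other subsets than in α4β7+ (1.71 and 2.15) and Mmp8 lower in CD22+ (−2.71). CD22+ replicate 4 had the most Tlr2, Tlr4, Tlr7, and Tlr9 in its subset. It also had the most C1qa (388 normalized counts), Cd74 (4454), H2-Ab1 (2091), and Col1a1 (754) of all 12 libraries. These are markers of macrophages, antigen-presenting cells, and stroma. Other genes of the lists peaked elsewhere, with Csf1r at 1905 against 1980 in α4β7+ replicate 3 and Mertk at 41.1 against 69.7 in α4β7+ replicate 4. Dcn was at 265 against 284 in α4β7+ replicate 2, and Pecam1 (9507) was the lowest of all 12. The part of such cells in the Toll-like receptor values was not tested.

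Toll-like receptors depend on chaperones that fold and escort them and on co-receptors that help them bind their ligands. From α4β7+ to CD22+ eosinophils, Unc93b1 and Ly86 of this list rose. Of 12 chaperone and co-receptor genes, 1 was called higher in α4β7− CD22− and 2 in CD22+ than in α4β7+ eosinophils, and none lower, where 3.7% and 5.6% of all genes tested were called higher. Nothing particular to the list is read from counts of 1 and 2. The median log2 fold changes were 0.24 and 0.33, compared with 0.003 and 0.014 over all genes. Under the alternatives, up to 3 and 4 of these genes were called higher. Unc93b1, which escorts the endosomal receptors from the endoplasmic reticulum, had 1705, 1539, 1486, and 1632 normalized counts in the α4β7+ subset, 2272, 1887, 1768, and 2225 in α4β7− CD22−, and 2805, 2411, 2347, and 3009 in CD22+ eosinophils. Its groups did not overlap and stood in the opposite order to those of Tlr13, and it rose by 0.73 from α4β7+ to CD22+ (SE 0.102, adjusted p = 0.000101). Ly86, which encodes MD-1, the partner of the TLR4 relative CD180 (Cd180 was not called), lay between 48.3 and 95.7 in α4β7+, 207 and 307 in α4β7− CD22−, and 327 and 427 in CD22+ libraries, and rose by 1.95 and 2.43. Cnpy3, a folding chaperone that works with the heat shock protein of Hsp90b1, had a log2 fold change of 0.52 (adjusted p = 2.3e-05) in CD22+, under the minimum fold, and that of Hsp90b1 was 0.02. The TLR4 co-receptor genes Cd14 and Ly96 lay between 25.5 and 74.2 and between 18.2 and 46.8, and neither was called.

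Endosomal proteases cleave the ectodomains of the nucleic acid receptors. Of 4 protease genes tested, Lgmn, which encodes the asparagine endopeptidase, fell in both other subsets against α4β7+ (8.05% and 12% of all genes tested were called in either direction), with −0.72 in α4β7− CD22− and −0.99 in CD22+ (adjusted p = 0.000433). Its counts lay between 822 and 1143 in α4β7+ and between 422 and 694 in CD22+ libraries. Ctsl, which encodes cathepsin L, rose by 0.73 in CD22+ eosinophils (adjusted p = 0.0102). Its rise of 0.66 in α4β7− CD22− was lost in limma without the variance trend and without single libraries, with 0.56 without α4β7+ replicate 4 (adjusted p = 0.0785), 0.62 without replicate 1, and 0.61 without replicate 2 of that subset, and 0.56 and 0.61 without α4β7− CD22− replicates 1 and 2.

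Adaptors and kinases carry the signal from the receptors to NF-κB and the interferon regulatory factors. Of 27 such genes, all tested, none was called in α4β7− CD22− and 1 in CD22+ eosinophils against α4β7+, against 8.05% and 12% of all genes tested, and the medians were 0.03 and 0.02. Under the alternatives, up to 5 of these genes were called higher in α4β7− CD22− and up to 3 in CD22+, and at most 1 lower. Myd88, the shared adaptor, lay between 3018 and 3695 in α4β7+ and between 3412 and 3926 in CD22+ libraries, with a log2 fold change of 0.13 (SE 0.0772). Ticam1, which encodes TRIF, lay between 268 and 412 in all libraries, and Irak4, the first kinase of the pathway, between 1739 and 2097. The gene called was Peli1, a ubiquitin ligase of the pathway, which rose by 0.80 (adjusted p = 3.29e-06). Irf5, a transcription factor downstream of MyD88, had a log2 fold change of −0.52 (adjusted p = 0.00174), under the minimum fold.

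Many genes listed here as inhibitors of the pathway fell outside the α4β7+ subset. Of 10 tested, 6 were called lower in α4β7− CD22− and the same number in CD22+ eosinophils than in α4β7+, and none higher, where 4.35% and 6.39% of all genes tested were called lower. The medians were −0.72 and −1.13. Nfkbia, which encodes the NF-κB inhibitor IκBα, had 17428, 16325, 15999, and 14785 normalized counts in the α4β7+ subset, 1877, 1627, 1704, and 1662 in α4β7− CD22−, and 447, 409, 418, and 591 in CD22+ eosinophils. The subsets lay far apart, with log2 fold changes against α4β7+ of −3.23 and −5.12 (SE 0.105, adjusted p = 3.47e-13 in CD22+). Tnfaip3, which encodes the ubiquitin-editing enzyme A20, fell in both subsets (−1.98 and −2.49), as did Irak3, a kinase-like protein that restrains the IRAK complex (−1.27 and −1.93). Dusp1, a phosphatase of MAP kinases (−0.79 and −1.199), Nfkbiz (−1.01 and −1.23), and the RNase gene Zc3h12a (−0.65 and −1.06) also fell, the first value of Zc3h12a under the minimum fold, at −0.55, with libraries rescaled to an equal total. Tollip and Socs1 were not called, with log2 fold changes of 0.27 and 0.43 in CD22+. Nfkbia and Tnfaip3 are themselves known targets of NF-κB.

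The list of other receptors with a TIR domain and their partners held the receptors of the IL-1 family. Of 7 tested, 3 were called lower and 1 higher in α4β7− CD22−, and 1 lower and 1 higher in CD22+ eosinophils against α4β7+, where 8.05% and 12% of all genes tested were called in either direction. The number called lower in α4β7− CD22− ran from 1 to 4 under the alternatives. Il1rl1, which encodes the IL-33 receptor ST2, had 434, 323, 435, and 639 normalized counts in α4β7+ and between 19.0 and 98.6 in all other libraries, and its log2 fold changes were −3.11 in α4β7− CD22− and −3.397 in CD22+ (adjusted p = 1.19e-05). Il1r2, a decoy receptor for IL-1, rose by 1.01 and 0.67, the latter 0.53 without α4β7+ replicate 2. The calls of Il1r1 (−2.09) and Il18r1 (−0.76) in α4β7− CD22− were lost without single libraries, for Il1r1 without α4β7+ replicates 1, 2, or 4 (−2.28, −1.94, and −1.81) or α4β7− CD22− replicates 1, 2, or 3 (−1.88, −2.02, and −1.81), and for Il18r1 without α4β7+ replicates 1 or 4 (−0.72 and −0.62) or α4β7− CD22− replicates 2 or 4 (−0.68 and −0.72). In the same comparison, 3 of 7 T and innate lymphoid cell markers were called lower, Cd3e (−1.11), Cd8a (−0.92), and Il7r (−0.64), with a median of −0.68 over the list, and their part in these values was not tested.

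Of 21 genes that ligands of Toll-like receptors are known to induce in other cells, 18 were tested. In α4β7− CD22− eosinophils 10 were called lower and 2 higher than in α4β7+, and in CD22+ 11 lower and 1 higher, where 4.35% and 6.39% of all genes tested were called lower. The medians were −0.94 and −0.95. Under the alternatives, between 7 and 10 were called lower in α4β7− CD22− and between 9 and 11 in CD22+. Tnf had 187, 198, 155, and 176 normalized counts in the α4β7+ subset, between 16.8 and 38.5 in α4β7− CD22−, and between 13.3 and 29.5 in CD22+ eosinophils, with log2 fold changes of −2.61 and −3.09. The chemokine gene Cxcl10 (−2.29 and −2.46), Ptgs2, which encodes cyclooxygenase-2 (−1.94 and −2.69), and the adhesion molecule gene Icam1 (−0.65 and −0.89) also fell, with Icam1 in α4β7− CD22− under the minimum fold, at −0.55, at equal totals. Cxcl3 was called lower in all 3 comparisons. It lay between 4684 and 8177 in α4β7+, 2337 and 2997 in α4β7− CD22−, and 989 and 1615 in CD22+ libraries. Il1b ran the other way, with counts between 15004 and 20476 in α4β7+ and between 25449 and 37651 in CD22+ libraries, and rose by 0.82 and 0.94. Ccl4 was the other gene called higher in α4β7− CD22−, with counts between 684 and 1319 against 242 and 598 in α4β7+. The labels name no added ligand.

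**Figure D4:**
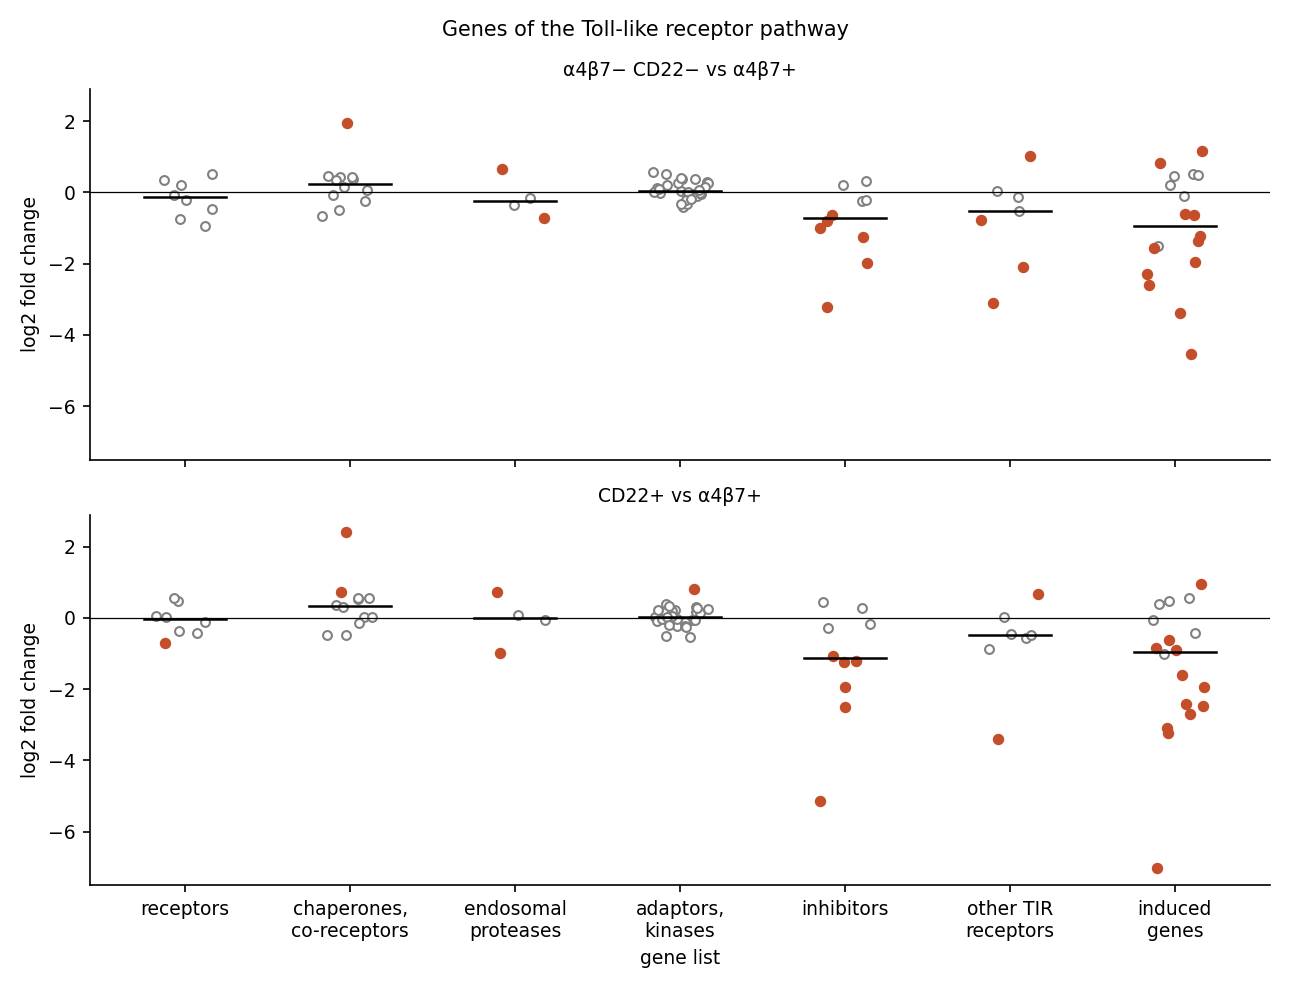
Log2 fold change of each gene tested in 7 gene lists of the Toll-like receptor pathway, in α4β7− CD22− (top) and CD22+ (bottom) against α4β7+ eosinophils (n = 4 libraries each), with filled points for calls and a bar at the list's median. Among the 8 receptors only Tlr13 is called, in CD22+, and among the 27 adaptors and kinases only Peli1, while the inhibitors and induced genes have medians between −0.72 and −1.13. The lowest point of each panel is Il6, whose value depends on the count of 1 added before the log.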

How the data were processed

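The authors sorted the 3 subsets, pooled 2 mice per library, prepared stranded libraries of total RNA (3 ng input), and trimmed the paired-end reads with Trimmomatic 0.39. Reads were pseudoaligned to mm10 (GRCm38) with Kallisto 0.46.1 and normalized with DESeq2 1.38.2, per the submitters' processing notes. Use of molecular identifiers is not given in the sources used here. The values deposited are DESeq2-normalized counts, treated as a signal, and are not whole numbers. Between 37.1% and 67.7% of the low values of a library lay within 5% of a multiple of 1 step, so whole reads were not recovered and count tests were not run. They summed to between 14286474 and 16915755 per library. The value of 1 read, between 0.848 and 1.16, is approximate, and a floor of 3 reads covers counting error only. No column of per-library values was left unmatched.

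The 15249 genes that averaged more than 10 normalized counts were tested on log2(normalized count + 1) in limma 3.58.1 (R 4.3.3) with all 3 subsets in 1 model and a variance trend. The added 1 understates changes of low genes. Adjusted p-values are from limma with Benjamini-Hochberg adjustment within a comparison. On simulated data for CD22+ against α4β7+ with 15249 genes, 64 of 100 genes changed by 1 log2 unit, 82 of 100 changed by 2, and 7 of 15049 unchanged genes were called.

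Replicate numbers 1 to 4 occur in each subset. Deviations of same-numbered libraries from their subset means correlated at between 0.135 and 0.203 for all 4 pairs of CD22+ and α4β7− CD22−, and over 0.1 in 7 of 12 pairs in all. Values are from the model without a block, and the model with the replicate number as a block was an alternative. Other alternatives set the pseudocount to 0.1 or 10, the filter to none or to an average of 50, and tried rescaling by the 75th percentile or to an equal total, quantile normalization, no variance trend, the adjusted p alone, only the subsets compared, each library left out, and another gene length.

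The members and gene lists were chosen with earlier results of these data known. All members are named, with genes of the pathway lists where called or where they complete a role, and for the called member the 3 genes most correlated with it. Gene positions, exon lengths, and 31-base words came from the GENCODE annotation of GRCm38, in which all 36047 identifiers were found, and promoter windows from RefSeq (GRCm38.p6). Python 3.11.15 with pandas 2.3.3 was used for tables, and matplotlib 3.10.9 for figures.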

Additional observations from a re-analysis of the deposited data

Results flagged for a closer look

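The CD22+ library with the most Tlr2, replicate 4 at 49.72 normalized counts, stood apart from the other 3 CD22+ libraries, which lay between 27.2 and 29.7. The gap made up 0.888 of the range of the group, above the critical value of Dixon's test for 4 libraries. It was the only 1 of 30 groups of 4 libraries with a library apart, and chance gives about 1 group in 20. The same library had the most C1qa (388), Cd74 (4454), H2-Ab1 (2091), and Col1a1 (754) of all 12. Csf1r (1905), Mertk (41.1), and Dcn (265) of the same marker lists were higher in other libraries, and Pecam1 (9507) was lowest in this one. The part of these markers in the Tlr2 value was not tested. Without this library the log2 fold change of Tlr2 between CD22+ and α4β7− CD22− was −0.07 in place of 0.13.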

How the results depend on the processing

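The call of Tlr13 between CD22+ and α4β7+ eosinophils was kept under each alternative except rescaling to an equal total, where 0 members were called and its log2 fold change was −0.53. On the adjusted p alone, 1 member, Tlr13, was called between α4β7− CD22− and α4β7+. With the replicate number as a block, Tlr13 kept its call (log2 fold change −0.69, adjusted p = 1.38e-05), the members called were 0, 1, and 0 in the 3 comparisons, and no other member's call changed. What the numbers stand for is not stated, and 11 of 12 libraries correlated best with their own number in another subset. The block cost Nos2 its call between CD22+ and α4β7+, with a log2 fold change of −1.95 in both fits. Its adjusted p in limma was 0.0416 without the block and 0.0546 with it. Of 540 values of single members under the alternatives, 515 kept their direction and side of the thresholds, and 23 turned sign, each for a member not called in either fit. With equal totals, Tlr4 in α4β7− CD22− against α4β7+ was 0.027 and Tlr1 in CD22+ against α4β7+ 0.054, and with quantile normalization Tlr4 was 0.0032 and Tlr3 in CD22+ against α4β7− CD22− −0.022. The cause was not tested. With single libraries left out, log2 fold changes of CD22+ over α4β7+ ran from −0.29 to 0.13 for Tlr1, −0.068 to 0.17 for Tlr6, and −0.28 to 0.35 for Tlr9, those of α4β7− CD22− over α4β7+ from −0.29 to 0.14 for Tlr4, and those of CD22+ over α4β7− CD22− from −0.0091 to 0.35 for Tlr1, −0.066 to 0.26 for Tlr2, and −0.38 to 0.26 for Tlr3. Among the pathway genes, tested under the same alternatives after the data were seen, 41 of 54 calls were kept throughout. Those lost under at least 1 alternative were Ctsl, Cxcl2, Icam1, Il10, Il18r1, Il1r1, and Zc3h12a in α4β7− CD22− and Ccl5, Cxcl1, Il1a, Il1r2, and Nos2 in CD22+ against α4β7+, and Il6 in CD22+ against α4β7− CD22−. Tlr5, Tlr7, Tlr8, and Tlr9 were counted at low levels, often under 20 normalized counts in a library, and the part of depth in their spread was not tested.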
